A study of Mus musculus with 18 samples.

Results

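Potassium channel genes, the genes whose symbols begin with Kcn, were examined in dorsal spinal tissue (L3–5) of mice with or without inflammation of a hindpaw. Every row of the 3 deposited tables that names a single gene beginning with Kcn was taken, and a name with several rows was represented by the row with the highest mean level over the 6 groups. This gave 86 genes of 18444 single gene names, drawn from 130 of the 34579 loci in each table. All mice were C57BL/6 mice of 3 months by the labels (C57BL/6N in the study's methods) that had received a recombinant adeno-associated virus (rAAV) in the spinal cord, and 24 h before collection either saline or complete Freund's adjuvant (CFA), an inflammatory agent, in the plantar hindpaw. The virus carried LacZ (rAAV-LacZ), a bacterial enzyme without a role in the tissue, wild-type histone deacetylase 4 (rAAV-HDAC4 wt), or HDAC4 3SA (rAAV-HDAC4 3SA), in which 3 phosphorylation sites are mutated so that it stays in the nucleus. There were 3 mice in each of the 6 groups, 18 mice in all. In the study's vector scheme the HDAC4 constructs are driven by a neuronal synapsin promoter and LacZ by a CMV promoter, so the vectors differ in promoter as well as in cargo, and the virus was injected into the cord of both sides whereas the paw was injected on one side.

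The tables give 1 FPKM value (a fragment count corrected for transcript length and sequencing depth) per group, pooled over its mice, and no value per mouse, read count or depth. The precision of a single value is therefore unknown, no SD or interval can be computed, and no test was made here, since the columns of the authors' own comparison were not used. Every difference below is a difference between 2 pooled values. Each vector was normalized in its own table, so changes are taken within a vector, and where levels of different vectors are listed next to each other, their order is one of separately normalized values and not a measured difference. A change is the log2 ratio of CFA over saline after adding 0.1 FPKM to both, and it was counted as higher or lower when it passed 0.5 in either direction, a ratio of 1.41 for an abundant gene. In whole tissue, fewer cells of a type and less RNA per cell cannot be told apart.

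Potassium channels let potassium leave or enter a cell along its gradient, and so set the resting potential, end action potentials and shape how often a neuron fires. Voltage-gated (Kv) channels are built from pore-forming subunits of the Kcna, Kcnb, Kcnc, Kcnd, Kcnh and Kcnq genes, with silent subunits (Kcnf, Kcng, Kcns, Kcnv) that need a Kv2 partner and with auxiliary subunits that change their gating or transport. Calcium- and sodium-activated channels, inward rectifiers (Kcnj) and 2-pore leak channels (Kcnk) complete the family. In the dorsal horn these channels are known for limiting the excitability of neurons that relay nociceptive input, while some inward rectifiers serve glia, vessels and the buffering of extracellular potassium.

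Of the 86 genes, 80 reached 0.5 FPKM in at least 1 group and were read for changes. A gene that passed only through the group where it was high had to differ between groups, so the counts below describe those 80 genes and not the family as annotated. Just inside the limit lay Kcnmb1, an auxiliary subunit of the large-conductance calcium-activated channel of smooth muscle, with a highest group value of 0.504 FPKM, and Kcna7, a Kv1 subunit, with 0.508 FPKM. Just outside lay Kcnh3, an ELK channel, with 0.499 FPKM and Kcnj5, a subunit of G protein-gated inward rectifiers, with 0.498 FPKM. The other genes outside were Kcnh4, Kcnk7, Kcnrg and Kcnj15, whose highest group values ran from 0.175 to 0.402 FPKM. By mean level, 3 genes exceeded 100 FPKM, 28 lay between 10 and 100, 39 between 1 and 10, and 16 below 1. The share of members with a mean of 10 to 100 FPKM (32.6%) was near that of all gene names (34.3%). Kcna3, a Kv1 channel known from immune cells, is not among these genes and was not analysed here.

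The highest levels belonged to auxiliary subunits of Kv1 channels, to Kv3 and Kv1 pore subunits and to the astrocytic inward rectifier. Kcnab2, a cytoplasmic beta subunit of Kv1 channels (chr4:152390604-152478020, GRCm38), was given first for saline and then for CFA as 174 and 173 FPKM with LacZ, 112 and 111 FPKM with HDAC4 wt and 139 and 122 FPKM with HDAC4 3SA. Kcnj10, the main inward rectifier of astrocytes and part of their uptake of extracellular potassium, stood at 149 and 134 FPKM with LacZ, 125 and 135 FPKM with HDAC4 wt and 133 and 129 FPKM with HDAC4 3SA. Kcnab2 was listed higher in both LacZ groups than in any HDAC4 group, while the 6 values of Kcnj10 lay between 125 and 149 FPKM. Saline is given before CFA in all that follows. Kcnc1, a Kv3 subunit of fast-spiking neurons, was at 99.1 and 103 FPKM with LacZ, 81.3 and 73.7 FPKM with HDAC4 wt and 85.2 and 72.4 FPKM with HDAC4 3SA. Among Kv1 channels of axons, which hold down repetitive firing, Kcna2 was at 65.1 and 61.8 FPKM with LacZ, 39.2 and 41.2 FPKM with HDAC4 wt and 47.0 and 37.9 FPKM with HDAC4 3SA, and Kcna1 was at 55.1 and 53.2 FPKM with LacZ, 40.6 and 39.0 FPKM with HDAC4 wt and 51.1 and 43.3 FPKM with HDAC4 3SA. Each of these 3 pore subunits was also listed higher with LacZ, in values normalized separately per vector. Kcnmb4, the neuronal beta subunit of the large-conductance calcium-activated channel, ranged over the 6 groups from 43.7 to 49.9 FPKM.

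Further genes among the 12 highest are also known from neurons. Kcnab1, another Kv1 beta subunit, ranged from 29.6 FPKM in HDAC4 3SA CFA mice to 52.8 FPKM in LacZ saline mice, and Kcnab3, the third such subunit, from 24.3 to 43.3 FPKM. Kcnip3, a calcium sensor that binds Kv4 channels and is also known as the transcriptional repressor DREAM, varied least of these, from 29.0 to 31.1 FPKM. Kcnip1, a related calcium sensor, lay between 23.8 and 30.8 FPKM, but its locus (chr11:33992668-33993672) holds 6.52% of the exon bases that GENCODE M21 gives the gene and also overlaps 4930469K13Rik on the same strand. Together the 12 highest genes held 60.5% to 65.7% of the summed FPKM of the 80 genes, whose sum ran from 1111 FPKM in HDAC4 3SA CFA mice to 1435 FPKM in LacZ saline mice.

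**Figure D1:**
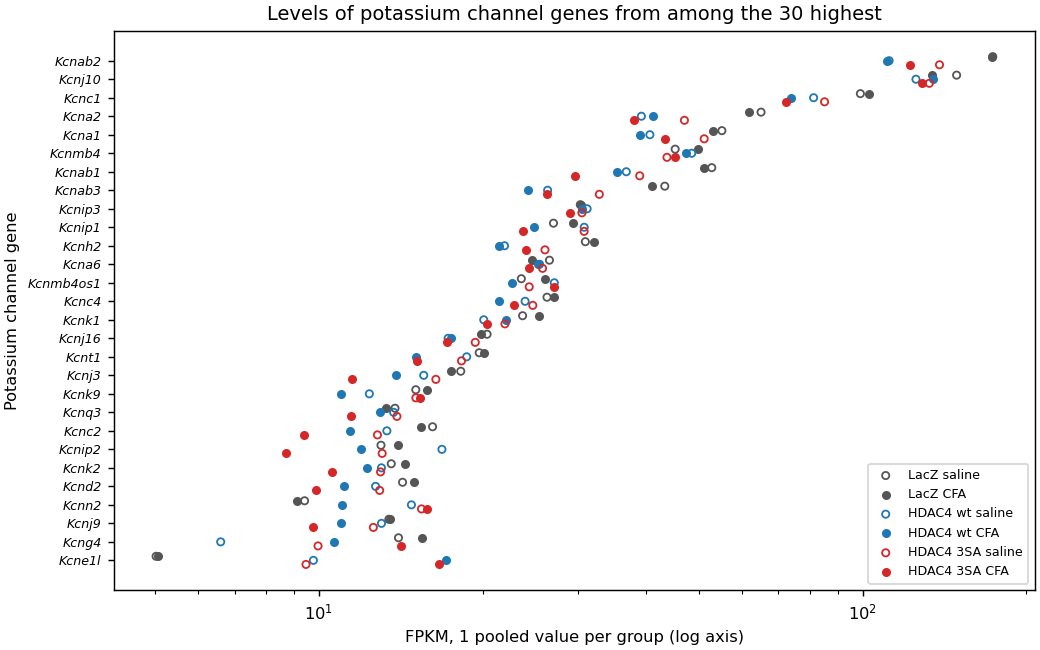
FPKM of potassium channel genes from among the 30 highest, on a log axis, with 1 pooled value per group (open circles for saline, filled circles for CFA, 1 colour per vector). Kcnab2 and Kcnj10 have high values in all 6 groups, and Kcne1l at the foot of the plot has its lowest values in the LacZ groups, unlike most genes above it.

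By class, auxiliary subunits held 27.5% to 28.0% of the summed level in the 6 groups, Kv3 subunits 17.2% to 21.2%, inward rectifiers 14.5% to 17.8% and Kv1 subunits 9.86% to 10.7%. The 2-pore channels held 5.54% to 6.45%, Kv7 channels 4.34% to 4.93%, calcium- or sodium-activated channels 3.70% to 5.15%, the EAG, ERG and ELK channels 3.66% to 4.45%, silent subunits 2.26% to 2.71% and Kv4 channels 1.96% to 2.41%. FPKM is scaled to length, so these shares compare the levels of transcripts, not of channel proteins.

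Within the classes, Kcnh2 led the EAG, ERG and ELK channels with 21.4 to 32.1 FPKM over the 6 groups; it is an ERG channel best known from the repolarization of heart muscle. Kcnk1 led the 2-pore channels with 20.1 to 25.5 FPKM, and Kcnd2, the Kv4 subunit that carries the A-type current of dorsal horn neurons, led its class with 9.86 to 15.0 FPKM. Kcnt1, a sodium-activated channel, was at 15.1 to 20.2 FPKM and Kcnma1, the pore of the large-conductance calcium-activated channel, at 6.89 to 9 FPKM. Of the silent subunits, Kcng4 had the highest mean, Kcns3 was at 4.24 to 8.65 FPKM, Kcnf1 at 1.6 to 2.88 FPKM and Kcnv1 at 0.682 to 1.06 FPKM. Kcnu1, a channel known from sperm, was listed at 1.34 to 1.76 FPKM at a locus that holds 42.4% of its exon bases.

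After CFA the potassium channel genes as a group stayed level in LacZ mice, were slightly lower in HDAC4 wt mice and were lower in most members in HDAC4 3SA mice. Their median change was 0.013, -0.10 and -0.27 with LacZ, HDAC4 wt and HDAC4 3SA, beside 0.010, 0.0045 and 0.017 for all 16918 single gene names that reached 0.5 FPKM. Lower values after CFA were listed for 35 of the 80 genes with LacZ, 51 with HDAC4 wt and 63 with HDAC4 3SA, which is 43.8%, 63.7% and 78.8% of them beside 46.1%, 48.6% and 46.5% of all names. Restricted to means of at least 5 FPKM, the median change of 40 members was 0.0027, -0.087 and -0.24 beside 0.0071, 0.00040 and 0.0023 for 9934 names.

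Few genes passed 0.5. With LacZ, 2 of 80 members were higher and 0 lower, beside 5.48% and 3.03% of all gene names. With HDAC4 wt, 8 were higher and 1 lower, beside 5.76% and 3.95%. With HDAC4 3SA, 6 were higher and 8 lower, beside 10.2% and 3.82%. The members' shares, 2.50% and 0% with LacZ, 10% and 1.25% with HDAC4 wt and 7.5% and 10% with HDAC4 3SA, lay above this background for higher values with HDAC4 wt and for lower values with HDAC4 3SA and below it for the other 4 counts. Kcna7 is counted in both of the former and Kcnj11 among the 8 higher with HDAC4 wt, and both reached 0.5 FPKM only with HDAC4 3SA. With a mean of at least 0.5 FPKM, 6 were higher with HDAC4 wt and 7 lower with HDAC4 3SA. With 1 FPKM added in place of 0.1, the 8 higher with HDAC4 wt became 5 and the 8 lower with HDAC4 3SA became 2. No vector passed 0.5 for 64 of the 80 genes (80.0%), beside 78.2% of all names. The change with HDAC4 3SA was below the change with LacZ for 59 of 80 members and for 8219 of 16918 names, and below the change with HDAC4 wt for 59 of 80 members and 8046 names.

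**Figure D2:**
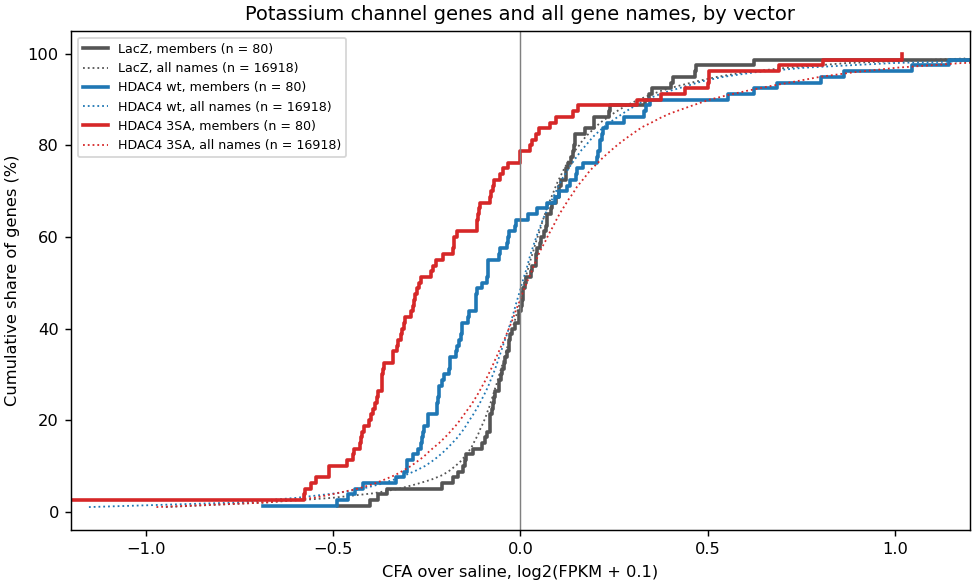
Cumulative share of genes (vertical axis, %) against the change after CFA (log2(FPKM + 0.1), horizontal axis), for the 80 potassium channel genes (solid steps) and for 16918 gene names (dotted lines), 1 colour per vector. The members' curve follows the dotted line with LacZ and lies to the left of it with HDAC4 3SA, where their median was -0.27.

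The lower values with HDAC4 3SA ran through most classes of voltage-gated channels and were small in most genes. All 6 Kv1, all 4 Kv3, all 3 Kv4, all 6 EAG, ERG and ELK and all 5 Kv7 genes were lower in HDAC4 3SA mice after CFA, with median changes of -0.35, -0.26, -0.39, -0.35 and -0.28. These counts include Kcna7, which was listed at 0 in HDAC4 3SA CFA mice, and Kcnq1, whose row lies on the opposite strand and holds none of its exon bases. In LacZ mice the median changes of the same classes were -0.072, 0.0011, 0.071, -0.057 and 0.042. Inward rectifiers were lower in 8 of 11 genes, 2-pore channels in 7 of 10 and auxiliary subunits in 9 of 12 with HDAC4 3SA, with medians of -0.17, -0.16 and -0.22. Silent subunits were lower in 6 of 9, with a median of -0.34. Calcium- or sodium-activated channels had a median of -0.073 there, with 5 of 8 lower, and of -0.19, with 6 of 8 lower, when Kcnn2 was read from the row on its annotated strand.

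**Figure D3:**
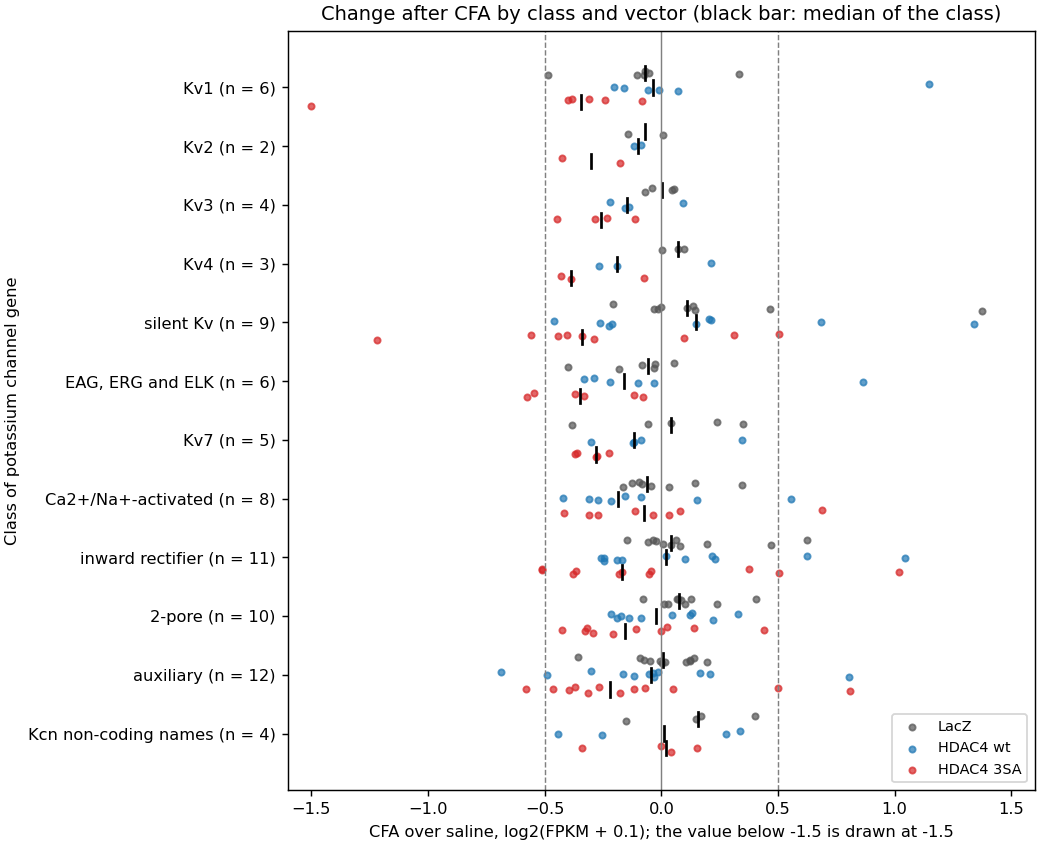
Change after CFA (log2(FPKM + 0.1), horizontal axis) of the 80 potassium channel genes by class (vertical axis), 1 point per gene and vector, with a black bar at the median of each class and dashed lines at 0.5 in either direction. The Kv1, Kv3, Kv4, Kv7 and Kcnh genes lie left of 0 with HDAC4 3SA, the silent subunits lie on both sides, and few points pass the dashed lines in any class.

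Most members that did not pass 0.5 were also lower with HDAC4 3SA, and their changes are given in the order LacZ, HDAC4 wt, HDAC4 3SA. Of the Kv1 genes, Kcna1 had changes of -0.052, -0.058 and -0.24, Kcna2 of -0.073, 0.071 and -0.31 and Kcna4, an A-type subunit, of -0.070, -0.20 and -0.40. Kcna5 and Kcna6 had changes of 0.33, -0.16 and -0.38 and of -0.10, -0.012 and -0.082, so that Kcna6 was the Kv1 gene nearest to 0 with HDAC4 3SA. Of the Kv3 genes, Kcnc1 had changes of 0.055, -0.14 and -0.23, Kcnc2 of -0.069, -0.22 and -0.45 and Kcnc4 of 0.044, -0.16 and -0.11. Kcnc2, which is known from inhibitory interneurons, had the lowest change of these with both HDAC4 vectors. The remaining Kv4 gene, Kcnd1, had changes of 0.10, 0.21 and -0.073, higher than Kcnd2 and Kcnd3 in both HDAC4 vectors. Of subunits of the M-channel, which damps repetitive firing, Kcnq3 had changes of -0.057, -0.086 and -0.28 and Kcnq5, whose row lies at places in the tables that do not overlap, of 0.35, -0.12 and -0.37. Of the ERG and EAG genes, Kcnh2 had changes of 0.053, -0.033 and -0.12 and Kcnh1 of -0.031, -0.10 and -0.33. Kcnh7 (-0.18, -0.22 and -0.078) rests on a row whose places do not all overlap between the vectors. At its LacZ place that row holds 3.39% of the gene's exon bases.

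Leak channels, calcium-activated channels and silent subunits held genes of both directions with HDAC4 3SA. The mechanosensitive 2-pore channels Kcnk2, Kcnk4 and Kcnk10 had changes of 0.083, -0.089 and -0.29, of 0.012, -0.14 and -0.21 and of -0.081, -0.19 and -0.42, and Kcnk12, a silent 2-pore subunit, of 0.068, -0.22 and -0.33. The acid-sensitive channels Kcnk3 and Kcnk9 had changes of 0.13, 0.22 and -0.00070 and of 0.070, -0.17 and 0.025, and both stayed near 0 with HDAC4 3SA. Kcnk1 had changes of 0.10, 0.13 and -0.11 and Kcnk5, an alkaline-activated channel, of 0.41, 0.045 and -0.32. Of the small-conductance calcium-activated channels, Kcnn1 had changes of -0.13, -0.086 and -0.035 and Kcnn3 of -0.082, 0.15 and 0.079, close to 0 with HDAC4 3SA. The sodium-activated channels were lower in both HDAC4 vectors, Kcnt1 with changes of 0.031, -0.31 and -0.27 and Kcnt2 of -0.17, -0.27 and -0.42, and the large-conductance pore Kcnma1 had changes of -0.095, -0.16 and -0.31. Its neuronal subunit Kcnmb4 did not go with it, with changes of 0.14, -0.036 and 0.050. The silent subunits went both ways: Kcnf1 had changes of -0.014, -0.46 and -0.45 and Kcns2 of -0.0032, -0.26 and -0.41, whereas Kcns1, whose variants are known from studies of pain, had changes of 0.14, 0.15 and 0.31. Kcns3 and Kcng1 had changes of -0.21, 0.20 and -0.29 and of -0.031, 0.21 and 0.10. Of the Kv1 beta subunits, Kcnab1 had changes of -0.049, -0.055 and -0.39, Kcnab2 of -0.0050, -0.014 and -0.18 and Kcnab3 of -0.076, -0.12 and -0.32, all negative in each vector.

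The 8 genes lower past 0.5 with HDAC4 3SA were Kcnj3, Kcnj6, Kcnip2, Kcnh5, Kcnh8, Kcnv1, Kcng3 and Kcna7. The first 6 had changes of at most 0.11 in size with LacZ, whereas Kcng3 passed 0.5 upwards there and Kcna7 was near or at 0 FPKM in most groups. Kcnj3, a pore subunit of G protein-gated inward rectifiers that mediate inhibition by opioid and GABA(B) receptors, was at 18.2 and 17.5 FPKM with LacZ, 15.6 and 13.8 FPKM with HDAC4 wt and 16.4 and 11.5 FPKM with HDAC4 3SA, which gave changes of -0.058, -0.17 and -0.51. Kcnj6, its usual partner in these channels, was at 6.28 and 6.18 FPKM with LacZ, 5.56 and 4.67 FPKM with HDAC4 wt and 6.5 and 4.53 FPKM with HDAC4 3SA, with changes of -0.023, -0.25 and -0.51. Both stayed level with LacZ and were lowest in HDAC4 3SA CFA mice. Kcnj9, a further subunit of these channels, missed the threshold with changes of 0.0055, -0.25 and -0.37. Kcnip2, a calcium sensor of Kv4 channels, was at 13.0 and 14 FPKM with LacZ, 16.8 and 12 FPKM with HDAC4 wt and 13.1 and 8.72 FPKM with HDAC4 3SA, with changes of 0.10, -0.49 and -0.58, so that both HDAC4 vectors had the lower value after CFA and only HDAC4 3SA passed 0.5. The Kv4 pores that bind it went the same way without passing: Kcnd2 had changes of 0.071, -0.19 and -0.39 and Kcnd3 of 0.0014, -0.27 and -0.43.

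Kcnh5, an EAG channel, was at 4.72 and 4.63 FPKM with LacZ, 4.76 and 3.76 FPKM with HDAC4 wt and 4.97 and 3.31 FPKM with HDAC4 3SA, with changes of -0.029, -0.33 and -0.57. Kcnh8, an ELK channel, was at 1.75 and 1.65 FPKM with LacZ, 2.02 and 1.64 FPKM with HDAC4 wt and 2.13 and 1.43 FPKM with HDAC4 3SA, with changes of -0.082, -0.29 and -0.55. Kcnv1, a silent subunit of Kv2 channels, was at 0.948 and 1.03 FPKM with LacZ, 1.06 and 0.891 FPKM with HDAC4 wt and 1.05 and 0.682 FPKM with HDAC4 3SA, with changes of 0.11, -0.22 and -0.56. In these 3 genes the LacZ values differed by at most 0.11 on the log2 scale, HDAC4 wt lay between, and HDAC4 3SA had the lowest CFA value of all 6 groups. Kcnb2, a pore subunit with which Kcnv1 assembles, had a change of -0.43 with HDAC4 3SA, though its row lies at places in the tables that do not overlap.

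The opposite direction was taken by 4 genes that passed 0.5 in both HDAC4 vectors, Kcnj14, Kcng4, Kcne1l and Kcnn4, beside 403 of 16918 gene names (2.38%). Kcng4 passed only just with HDAC4 3SA, at 0.503. With 1 FPKM added in place of 0.1, only 3 members were higher with HDAC4 3SA, so the set of 4 depends on that setting. Kcnj14, an inward rectifier known from motor neurons of the cranial nuclei, was the only member higher past 0.5 in every vector, at 3.58 and 5.57 FPKM with LacZ, 1.75 and 3.73 FPKM with HDAC4 wt and 3.22 and 6.63 FPKM with HDAC4 3SA. Its CFA value was 1.56 times the saline value with LacZ, 2.13 times with HDAC4 wt and 2.06 times with HDAC4 3SA, changes of 0.62, 1.05 and 1.02. Kcng4, a silent subunit that is known to mark fast motor neurons, was at 14 and 15.5 FPKM with LacZ, 6.60 and 10.7 FPKM with HDAC4 wt and 9.96 and 14.2 FPKM with HDAC4 3SA, with changes of 0.14, 0.68 and 0.50. Its lowest value was that of HDAC4 wt saline mice, and after CFA it was listed below the LacZ CFA value in both HDAC4 vectors. Kcne1l, a single-span auxiliary subunit also called Kcne5, was at 5.02 and 5.07 FPKM with LacZ, 9.77 and 17.1 FPKM with HDAC4 wt and 9.47 and 16.7 FPKM with HDAC4 3SA, with changes of 0.014, 0.80 and 0.81. It was flat in LacZ mice and nearly identical in both HDAC4 vectors. Kcnn4, the intermediate-conductance calcium-activated channel of microglia and blood cells, was at 0.469 and 0.622 FPKM with LacZ, 3.83 and 5.67 FPKM with HDAC4 wt and 3.23 and 5.28 FPKM with HDAC4 3SA, with changes of 0.34, 0.56 and 0.69. Both genes were listed higher in the HDAC4 groups than in the LacZ groups, which were normalized in another table.

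**Figure D4:**
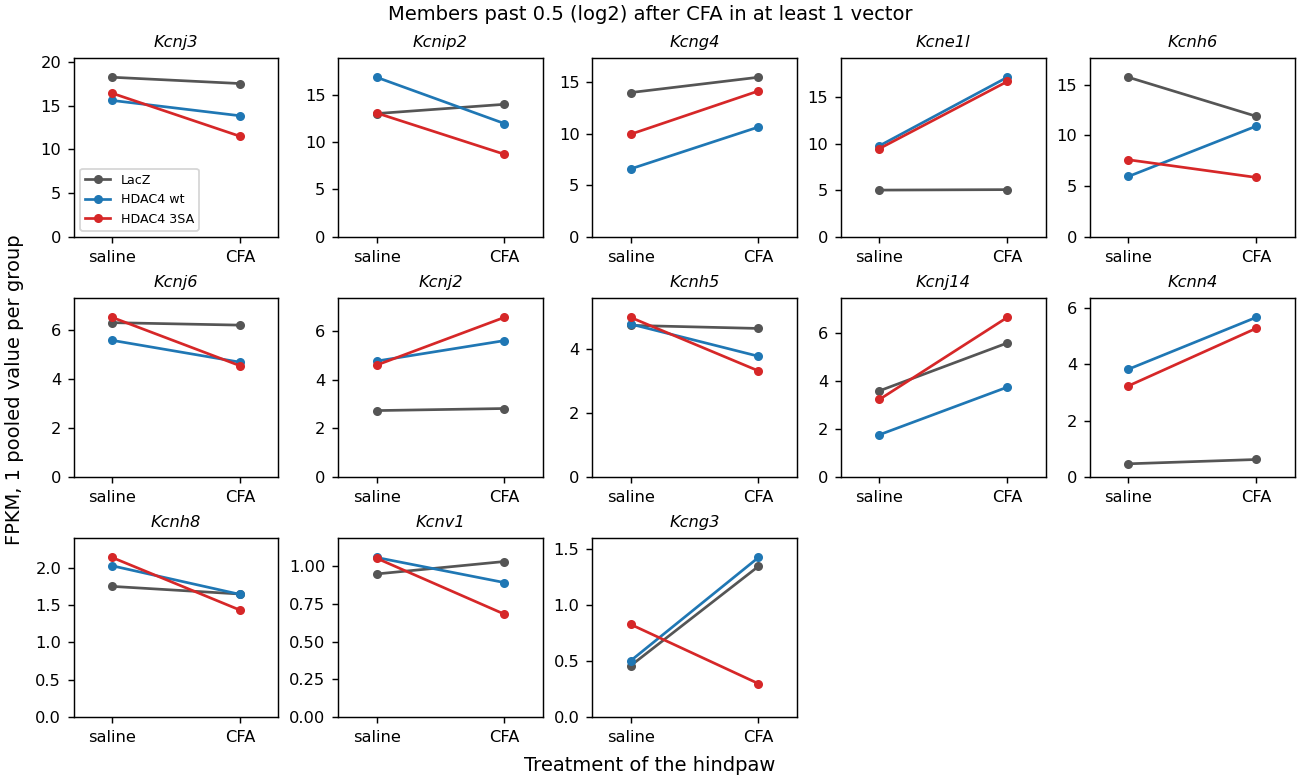
FPKM in saline and CFA mice (1 pooled value per group, lines join the groups of a vector, axes start at 0) for the potassium channel genes past 0.5 (log2) in at least 1 vector that reach 1 FPKM. A group of that vector also had to reach 0.5 FPKM, which leaves out Kcnj11. Kcnj14 rises in all 3 vectors, Kcne1l and Kcnn4 rise in the HDAC4 vectors from above the LacZ level, and Kcng3 and Kcnh6 go opposite ways between vectors.

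For 3 of these 4 genes the RefSeq table of promoters (GRCm38.p6) holds a window of 300 bases, 250 before and 50 after the annotated start. They are shown because the genes moved together in the HDAC4 vectors, and lie at chr7:24370013-24370312 (Kcnn4, plus strand), chr8:119635631-119635930 (Kcng4, minus strand) and chrX:142306149-142306448 (Kcne1l, minus strand). Capitals mark the 50 bases from the start onward, and the last bases of each window were found in a GENCODE M21 transcript of the gene.
Kcnn4: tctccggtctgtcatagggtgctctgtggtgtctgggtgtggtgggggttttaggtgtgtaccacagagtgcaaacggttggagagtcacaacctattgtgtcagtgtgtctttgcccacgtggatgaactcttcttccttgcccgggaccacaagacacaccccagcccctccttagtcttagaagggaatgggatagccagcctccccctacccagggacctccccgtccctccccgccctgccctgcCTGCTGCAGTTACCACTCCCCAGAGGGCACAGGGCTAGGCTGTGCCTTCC
Kcng4: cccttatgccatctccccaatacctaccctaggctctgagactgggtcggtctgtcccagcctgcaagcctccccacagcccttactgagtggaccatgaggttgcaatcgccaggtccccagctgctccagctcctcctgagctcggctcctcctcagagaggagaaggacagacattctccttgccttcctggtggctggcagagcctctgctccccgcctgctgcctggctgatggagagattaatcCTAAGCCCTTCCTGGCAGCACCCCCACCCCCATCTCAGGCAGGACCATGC
Kcne1l: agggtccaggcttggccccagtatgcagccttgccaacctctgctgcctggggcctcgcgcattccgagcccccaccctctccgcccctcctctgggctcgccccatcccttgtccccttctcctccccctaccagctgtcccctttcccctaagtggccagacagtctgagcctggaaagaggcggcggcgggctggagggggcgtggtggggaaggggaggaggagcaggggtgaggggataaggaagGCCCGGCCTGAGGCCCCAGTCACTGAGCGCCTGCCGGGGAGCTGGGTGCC
All 3 windows are rich in G and C, with 59.7% in Kcnn4, 61.3% in Kcng4 and 69.7% in Kcne1l, beside a median of 52.7% over 32851 windows and 59.7% over 85 windows of 62 members. The letters TGANTCA (AP-1), TGACGTCA (CRE) and TATAAA and the motif of MEF2, a family of factors that HDAC4 binds, were searched on both strands, and none occurs in these windows. AP-1 letters occur in 7.81% of all windows, CRE in 1.79%, TATAAA in 13.6% and MEF2 in 3.19%. Over the members' windows the shares were 3.53%, 0.00%, 4.71% and 2.35%, the AP-1 letters being found at Kcnk2, Kcnip3 and Kcnip4 and the MEF2 motif at Kcnj9 and Kcnj16.

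Motor neuron and microglia markers were read beside these genes. All 5 motor neuron markers listed (Slc18a3, Slc5a7, Chat, Mnx1 and Isl1) were higher after CFA in each vector, past 0.5 in 1 with LacZ, 4 with HDAC4 wt and 5 with HDAC4 3SA, and their summed FPKM was 27.8 and 36.1 with LacZ, 12.8 and 28.9 with HDAC4 wt, 20.2 and 44.6 with HDAC4 3SA. The lowest sum was that of HDAC4 wt saline mice, the group in which Kcng4 and Kcnj14 were also lowest, and no marker lay under 0.1 FPKM in all groups. All 6 microglia markers listed (C1qa, Csf1r, Cx3cr1, Tmem119, P2ry12 and Aif1) were detected, with summed FPKM of 90.8 and 104 with LacZ, 499 and 646 with HDAC4 wt, 372 and 671 with HDAC4 3SA. Their median change was 0.12, 0.25 and 0.62. Of the 6, 0 passed 0.5 with LacZ, 0 with HDAC4 wt and 4, all higher, with HDAC4 3SA, and P2ry12 was lower with LacZ at -0.25. Their sums, like Kcnn4, were listed higher in all HDAC4 groups than in the LacZ groups, and the part of either cell type in the channels' values was not tested.

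Of the other channels known from glia, vessels or immune cells, Kcnj2 passed 0.5, as did Kcnmb1 at the limit of the level read, lower with HDAC4 wt and higher with HDAC4 3SA. Kcnj2, an inward rectifier of many excitable cells and of microglia, was at 2.74 and 2.82 FPKM with LacZ, 4.77 and 5.62 FPKM with HDAC4 wt and 4.61 and 6.58 FPKM with HDAC4 3SA, with changes of 0.043, 0.23 and 0.50. Kcnk13, a 2-pore channel of microglia, was at 7.02 and 7.17 FPKM with LacZ, 7.11 and 7.76 FPKM with HDAC4 wt and 6.49 and 7.17 FPKM with HDAC4 3SA, with changes of 0.029, 0.12 and 0.14. Kcnk6, another 2-pore channel, was at 0.721 and 0.869 FPKM with LacZ, 2.44 and 3.09 FPKM with HDAC4 wt and 2.26 and 3.09 FPKM with HDAC4 3SA, with changes of 0.24, 0.33 and 0.44. Of the astrocytic rectifiers, Kcnj10 had changes of -0.15, 0.10 and -0.046 and Kcnj16, its partner subunit, of -0.036, 0.019 and -0.17. Astrocyte markers had summed FPKM of 891 and 879 with LacZ, 1326 and 1599 with HDAC4 wt, 1322 and 1644 with HDAC4 3SA, of which Gfap gave the most. Of the 6 markers, Gfap, Aqp4 and Aldh1l1 were listed higher in all HDAC4 groups than in both LacZ groups, and Slc1a2, Gja1 and Slc1a3 lower. Kcnj8, the pore of ATP-sensitive channels of pericytes and smooth muscle, was at 2.36 and 2.47 FPKM with LacZ, 2.68 and 3.13 FPKM with HDAC4 wt and 2.42 and 3.17 FPKM with HDAC4 3SA, with changes of 0.062, 0.22 and 0.38. The 10 members that were higher in all 3 vectors were Kcng4, Kcne1l, Kcnk13, Kcnj2, Kcnj14, Kcns1, Kcnn4, Kcnj8, Kcnmb4os2 and Kcnk6, which is 12.5% of members beside 24.1% of all names.

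A few genes went opposite ways between vectors. Kcnh6, an ERG channel, was at 15.7 and 11.9 FPKM with LacZ, 5.95 and 10.9 FPKM with HDAC4 wt and 7.60 and 5.86 FPKM with HDAC4 3SA, with changes of -0.40, 0.86 and -0.37. The name has 3 rows on its annotated strand. Another row with the same span (chr11:106019067-106035328) was at 3.64 and 3.43 FPKM with LacZ, 3.42 and 2.49 FPKM with HDAC4 wt and 3.37 and 2.94 FPKM with HDAC4 3SA, with changes of -0.082, -0.44 and -0.19, and a shorter row beyond its end had changes of -0.71, -0.55 and -0.93. The higher value with HDAC4 wt is therefore that of 1 of 3 rows. Kcng3, a silent subunit, was at 0.457 and 1.34 FPKM with LacZ, 0.501 and 1.42 FPKM with HDAC4 wt and 0.826 and 0.298 FPKM with HDAC4 3SA, with changes of 1.37, 1.34 and -1.22. However, its row holds 29.7% of the gene's exon bases at its LacZ place and lies at another place in 1 of the tables. Members past 0.5 that reached 0.5 FPKM only just were Kcnmb1, with values of 0.128 to 0.504 FPKM, and Kcna7, which was listed at 0 in 3 groups and at 0.508 FPKM in HDAC4 3SA saline mice. Kcnj11, the ATP-sensitive rectifier pore, passed 0.5 with HDAC4 wt at 0.058 and 0.143 FPKM, levels under the limit in that vector.

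The tables list many genes more than once. Of the 86 names, 32 have more than 1 row, and the order of rows along each chromosome falls into 1 block per strand, which matched the annotated strand for 13036 of 13233 names with a single row (98.5%). By this order 22 members have a row of at least 0.5 FPKM on their annotated strand and another on the opposite strand. For Kcna1 the opposite strand row over the same span (chr6:126636417-126646612) was at 44.2 and 42.7 FPKM with LacZ, 19.9 and 31.3 FPKM with HDAC4 wt and 21.6 and 18.5 FPKM with HDAC4 3SA, next to the annotated row given above. For Kcnk9, a 2-pore channel, the annotated row was at 15.1 and 15.8 FPKM with LacZ, 12.4 and 11 FPKM with HDAC4 wt and 15.1 and 15.3 FPKM with HDAC4 3SA. Its opposite strand row was at 12.9 and 13.2 FPKM with LacZ, 6.40 and 9.48 FPKM with HDAC4 wt and 6.76 and 6.11 FPKM with HDAC4 3SA. Opposite strand rows of both genes were higher after CFA with HDAC4 wt, by 0.65 and 0.56, where the annotated rows had changes of -0.058 and -0.17.

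This held over the 22 members. With HDAC4 wt their opposite strand rows were higher after CFA in 16, past 0.5 in 7, with a median change of 0.40, and their annotated rows were lower in 17, with a median of -0.19. Over all 2412 names with such rows, 38.7% of the opposite strand rows were past 0.5 with HDAC4 wt, with a median of 0.40, so the members' 31.8% lay below that background. With LacZ the median of the members' opposite strand rows was -0.027 and with HDAC4 3SA -0.11. The opposite strand level was a median of 37.4% and 38.1% of the annotated level in LacZ saline and CFA mice, 26.9% and 36.7% with HDAC4 wt and 24.8% and 28.6% with HDAC4 3SA. Over all 2412 names the same medians were 24.2% and 24.9% with LacZ, 18.3% and 24.0% with HDAC4 wt and 17.4% and 18.6% with HDAC4 3SA, so the share was larger after CFA with HDAC4 wt there as well. Kcnmb4os1, a non-coding gene named for lying antisense to Kcnmb4, is listed over the same span at 22.7 to 27.1 FPKM, with changes of 0.15, -0.26 and 0.15. For 4 members the chosen row itself is on the opposite strand, Kcnn2, Kcnip4, Kcnq1 and Kcnrg. Kcnn2, a small-conductance calcium-activated channel of the afterhyperpolarization, had changes of -0.045, -0.42 and 0.032 on its chosen row, at 9.41 and 9.12 FPKM with LacZ, 14.8 and 11 FPKM with HDAC4 wt and 15.4 and 15.8 FPKM with HDAC4 3SA, and of -0.073, -0.30 and -0.39 on the annotated strand, at 11 and 10.5 FPKM with LacZ, 9.23 and 7.49 FPKM with HDAC4 wt and 11 and 8.38 FPKM with HDAC4 3SA.

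**Figure D5:**
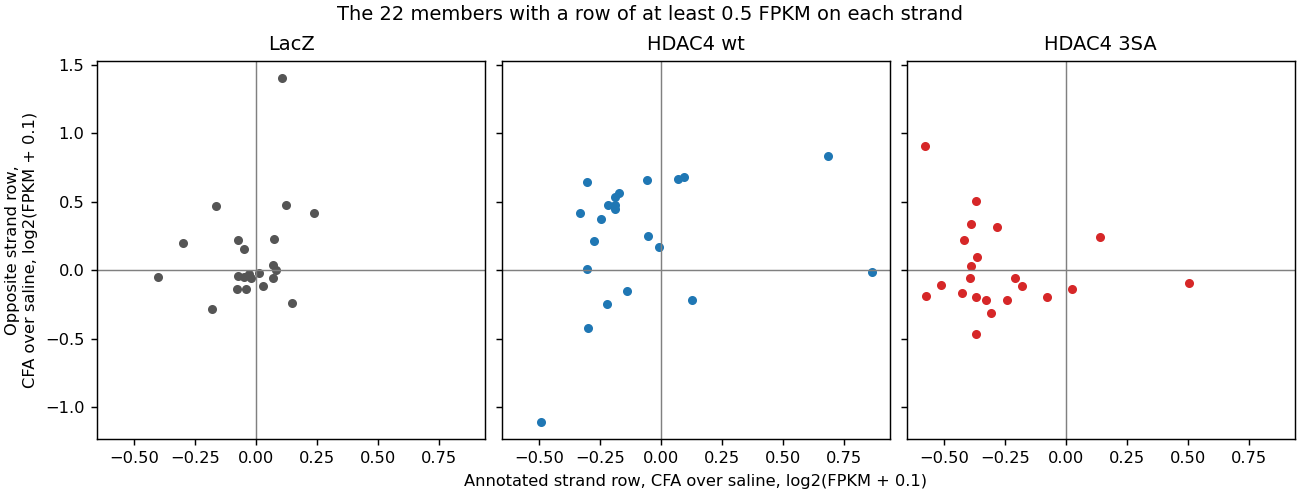
Change after CFA of the opposite strand row (vertical axis) against that of the annotated strand row (horizontal axis), both log2(FPKM + 0.1), for the 22 members with a row of at least 0.5 FPKM on each strand, 1 panel per vector. With HDAC4 wt 16 of 22 points lie above 0 on the vertical axis while 17 lie left of 0 on the horizontal axis.

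Among other genes of potassium handling, pump and cotransporter genes had positive medians with HDAC4 3SA and partner proteins of the channels a negative one. Of the sodium potassium pump, all 6 subunits were read and none passed 0.5, with median changes of 0.022, 0.092 and 0.086. Atp1b2, a glial subunit, was at 309.6 and 316 FPKM with LacZ, 313 and 366 FPKM with HDAC4 wt and 315 and 366 FPKM with HDAC4 3SA, with changes of 0.030, 0.23 and 0.21. Of the potassium cotransporters, 4 of 5 were read and none passed 0.5, with medians of 0.019, 0.16 and 0.15. Slc12a5 (KCC2), the neuronal exporter of chloride, was at 144 and 146 FPKM with LacZ, 111 and 103 FPKM with HDAC4 wt and 123 and 97.7 FPKM with HDAC4 3SA, with changes of 0.023, -0.11 and -0.34. Proteins that bind or cluster the channels, such as Dpp6, Dpp10 and Amigo1, were read for 12 of 13 genes and were lower in 10 of 12 with HDAC4 3SA, with medians of -0.024, -0.13 and -0.24. Past 0.5 were Dpp10, higher with HDAC4 wt at 0.50, Lrrc26, lower with HDAC4 wt at a level of 0.368 and 0.078 FPKM, and Lrrc55, lower with HDAC4 3SA at -0.50.

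Genes of other channels and receptors of neurons had similar medians. The 33 voltage-gated sodium and calcium channel genes that reached 0.5 FPKM had median changes of -0.0091, -0.13 and -0.27, and 31 of them were lower with HDAC4 3SA. The 49 GABA, glycine and glutamate receptor genes had medians of -0.020, -0.15 and -0.30, and 45 were lower with HDAC4 3SA. The lower values with HDAC4 3SA were thus shared by these sets, and a difference between them and the potassium channel genes could not be tested. The 6 neuron markers had summed FPKM of 2339 and 2298 with LacZ, 1515 and 1508 with HDAC4 wt, 1702 and 1514 with HDAC4 3SA, 3 were lower with HDAC4 3SA, and their median changes were 0.055, -0.064 and -0.12. Their part in the channels' values was not tested.

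Marker lists of other cells also moved between groups, and their part in the channels' values was not tested. Neutrophil markers had median changes of 3.16, -0.93 and -0.89, with summed FPKM from 11 to 112. Skeletal muscle markers had medians of 1.04, -1.56 and -0.41, with sums from 2.67 to 57.5 FPKM, and Schwann cell markers of 0.63, -0.041 and -0.74, with sums from 624 to 1179.6 FPKM. The medians were 0.55, 0.23 and 0.13 for meningeal fibroblasts, -1.09, -0.029 and 0.21 for ependyma, 0.11, 1.46 and 0.81 for the 2 sensory ganglion neuron markers that could be read, and 0.016, 0.19 and 0.11 for oligodendrocytes. Astrocyte markers had medians of -0.086, 0.17 and 0.10, endothelium markers of 0.093, 0.16 and 0.25 and pericyte markers of 0.15, 0.26 and 0.092. No gene of these lists that the tables hold lay under 0.1 FPKM in all groups.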

How the data were processed

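RNAseq was made per mouse, from dorsal spinal tissue (L3–5), as strand-specific libraries of poly-A RNA read as single-end reads of 50 bp. Alignment by the authors used TopHat 2.0.14 over Bowtie 2.2.9, with GRCm38 and Ensembl release 85 as reference, and Cuffdiff 2.0.0 estimated the levels. Their deposited FPKM values come in a table for each vector, 1 value per group over its 3 mice. The other deposited columns hold Cuffdiff's own log2 fold change, test statistic, p-value, q-value and status and were not used. Counts, depth and values per mouse are not part of the tables, so no limma or edgeR fit was made and no test is given.

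Groups were taken from GEO's labels. Locus starts count from 0 in the tables and are given here counted from 1. Changes were computed as log2 ratios with 0.1 FPKM added, called past 0.5, for genes of at least 0.5 FPKM in a group (Python 3.11.15, pandas 2.3.3, numpy 2.4.6), and the call rule was checked on made-up tables with known changes. The strand of a row was read from the order of rows and compared with GENCODE M21.

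Genes named are the 12 highest, the highest of each subfamily, those past 0.5, those at the limit, and channels of glia, vessels and immune cells; further genes were named after their values were seen. The members and all lists, 13 of cell type markers and 3 of potassium handling genes, were chosen with earlier results of these data known, and the sodium and calcium channels and transmitter receptors were added after seeing the values. Alternatives changed the added FPKM, the minimum level, the threshold, the centring, the rows used and the names included. Values of a few genes covered by the naming rule are not reported here.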

Additional observations from a re-analysis of the deposited data

Results flagged for a closer look

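Opposite directions between vectors, each past 0.5 on the log2(FPKM + 0.1) scale, drew attention to 2 genes at low levels that no group lists at 0, and the differences between vectors were not tested. Kcng3, a silent subunit, had changes after CFA of 1.37 with LacZ, 1.34 with HDAC4 wt and -1.22 with HDAC4 3SA. Its row is a short locus that lies at places in the tables that do not overlap. Kcnmb1, a subunit of the calcium-activated channel of smooth muscle, had changes of -0.36, -0.69 and 0.50, also at places that do not overlap. It reached 0.5 FPKM only in HDAC4 3SA CFA mice, at 0.504 FPKM. At its LacZ place the row holds 13.5% of the gene's exon bases. Kcna7, a Kv1 subunit, was called in opposite directions with HDAC4 wt and HDAC4 3SA as well, but 3 of its groups are listed at 0.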

How the results depend on the processing

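The median change of the members kept its sign in all 33 recomputations, and lay between 0.0060 and 0.021 with LacZ, -0.10 and -0.039 with HDAC4 wt and -0.28 and -0.19 with HDAC4 3SA. The value of -0.039, over 1.5 times nearer to 0 than the -0.095 given, came from summing all rows of a name. Counts past the threshold stayed within 1.5 times in 53 of 72 recomputations. With 1 FPKM added, 3 members were higher and 2 lower with HDAC4 3SA, and 5 higher and 0 lower with HDAC4 wt. With 0.01 FPKM added, 2 were lower with HDAC4 wt and 2 with LacZ. With a threshold of 1, the higher counts were 1, 3 and 1 with LacZ, HDAC4 wt and HDAC4 3SA, and the lower counts 0 with HDAC4 wt and 2 with HDAC4 3SA. The 1 gene lower with HDAC4 wt, Kcnmb1, became 0 with at least 1 FPKM in a group, with a mean of at least 0.5 FPKM, without names at places that do not overlap and without loci under 50 percent of exon bases, 3 with no minimum level and 3 with all rows of a name summed. Leaving out those places, or the partial loci, also left 1 gene higher with LacZ. Taking the row on the annotated strand, leaving out the 4 non-coding names and leaving out partial loci were chosen after seeing the data. No paired analysis was possible because the tables hold 1 pooled value per group, and leaving out single mice was not possible for the same reason. The depth is unknown, so low values have an unknown error.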
